A study of Mus musculus with 10 samples.

Results

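The EGFR family ligands and receptors were followed here as 10 genes, matched on gene symbol among the 31053 genes in the files. They are the 6 ligands Areg, Ereg, Hbegf, Tgfa, Btc and Epgn, the 3 receptors Egfr, Erbb2 and Erbb3, and Errfi1, an intracellular inhibitor of the receptors. All 10 were found once each. Single-cell 3′ RNA sequencing had been run on EpCAM+ cells sorted from digested mouse lungs by fluorescent colour, in 6 groups and 10 libraries. Every group carried Sftpc-CreERT2, in which the promoter of the surfactant gene Sftpc drives an inducible Cre in alveolar type 2 (AT2) cells, and every mouse was about 8 weeks old and received 3 tamoxifen doses of 0.2 mg/gbw. Confetti lungs carried the R26R-Confetti reporter, so both the RFP+ and the YFP+ cells were wildtype, with 1 library of each colour. In lungs of a second line, called mosaic here, the RFP+ cells carried an oncogenic allele and the YFP+ cells of the same lungs were wildtype neighbours, with 2 libraries of each colour at 4 days and 2 libraries of each colour at 2 weeks. The labels give no time for the Confetti libraries, which the study's methods place at 2 weeks. Each sample pooled at least 2 lungs, and the 4-day lungs were taken before the tamoxifen had washed out. Cre driven by Sftpc labels AT2 cells and their offspring, so other epithelial cells that would meet the ligands are sampled in small numbers at most. The mutation cannot be read from 3′ counts, so colour against genotype was not checked here.

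The ligands of this family are made as membrane-bound precursors that proteases of the ADAM group release from the cell surface. Ligand binding pairs Egfr (ErbB1) with itself or with Erbb2, which has no known ligand of its own, or Erbb3, whose kinase domain has little activity, and the pair signals through adaptors to the ERK cascade. Amphiregulin (Areg), TGF-alpha (Tgfa) and epigen (Epgn) bind Egfr, whereas epiregulin (Ereg), HB-EGF (Hbegf) and betacellulin (Btc) can also bind ErbB4. Errfi1 (Mig6) binds the active kinase and is itself induced by ERK signalling. In the lung, EGFR ligands are known for their part in epithelial growth and repair.

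In the GRCm38 assembly with GENCODE M21 genes, Epgn (chr5:91027464-91035215), Ereg (chr5:91074622-91093646), Areg (chr5:91139599-91148432) and Btc (chr5:91357261-91402994) lie next to each other, with Btc on the minus strand and the others on the plus strand. From the start of Epgn to the end of Btc the interval spans 376 kb, and these 4 are the protein-coding genes that lie wholly within it. The other members are on separate chromosomes or far apart, with Tgfa on chromosome 6, Hbegf on 18, Egfr and Erbb2 on 11, Erbb3 on 10 and Errfi1 on 4. RefSeq promoter windows (GRCm38.p6) were found for 7 members, in 8 entries, as Errfi1 has a pair of start sites. The 250 bases before the start are shown for Errfi1 and for 4 ligands (Areg, Epgn, Btc and Tgfa), as Areg, Epgn and Btc are neighbours on chromosome 5 and their promoters can be set side by side with those of Tgfa and the inhibitor. No window was found for Ereg, Hbegf or Erbb3, so these were not searched. Windows of Egfr and Erbb2 are not shown, nor is that of the other Errfi1 start, which matched none of the motifs below. Each window runs 5′ to 3′ on the gene's own strand and ends at the base before the RefSeq start, which for Epgn lies inside the GENCODE gene given above. Capitals mark every match, on either strand, to any of 3 motifs. The first is TGACGTCA, the cyclic AMP response element. The second is TATAAA, the core of a TATA box. The third is GGGCGG, known as a GC box. The site of AP-1 factors, TGANTCA, was searched as well.
Areg, chr5:91139349-91139598, plus strand: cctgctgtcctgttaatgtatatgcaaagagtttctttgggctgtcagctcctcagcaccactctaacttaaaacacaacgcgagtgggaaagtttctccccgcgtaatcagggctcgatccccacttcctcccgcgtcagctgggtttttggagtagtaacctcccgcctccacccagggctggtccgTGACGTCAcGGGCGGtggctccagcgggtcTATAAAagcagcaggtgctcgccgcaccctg
Epgn, chr5:91027267-91027516, plus strand: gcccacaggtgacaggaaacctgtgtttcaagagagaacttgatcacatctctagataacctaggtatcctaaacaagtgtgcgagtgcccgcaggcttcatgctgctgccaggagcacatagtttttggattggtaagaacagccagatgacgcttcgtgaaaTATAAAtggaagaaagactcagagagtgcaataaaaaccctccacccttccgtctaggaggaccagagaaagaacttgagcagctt
Btc, chr5:91402995-91403244, minus strand: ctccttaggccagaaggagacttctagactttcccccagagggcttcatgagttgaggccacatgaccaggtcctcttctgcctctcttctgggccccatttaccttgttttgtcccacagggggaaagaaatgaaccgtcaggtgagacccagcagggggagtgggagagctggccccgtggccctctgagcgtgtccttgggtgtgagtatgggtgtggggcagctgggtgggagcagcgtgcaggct
Tgfa, chr6:86194972-86195221, plus strand: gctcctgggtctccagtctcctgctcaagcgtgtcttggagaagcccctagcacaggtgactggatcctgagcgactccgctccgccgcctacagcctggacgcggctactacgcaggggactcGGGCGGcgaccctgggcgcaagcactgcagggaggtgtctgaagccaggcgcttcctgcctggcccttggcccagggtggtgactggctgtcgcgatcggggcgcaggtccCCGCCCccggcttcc
Errfi1, chr4:150854820-150855069, plus strand: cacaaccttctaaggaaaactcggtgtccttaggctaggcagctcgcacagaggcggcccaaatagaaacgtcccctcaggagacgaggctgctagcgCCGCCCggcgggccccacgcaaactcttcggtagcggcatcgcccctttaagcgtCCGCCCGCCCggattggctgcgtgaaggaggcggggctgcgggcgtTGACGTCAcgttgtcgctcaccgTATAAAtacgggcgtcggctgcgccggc
The Areg window held the cyclic AMP response element 61 bases, a GC box 52 bases and a TATA box 31 bases before the start. The Errfi1 window shown held the cyclic AMP response element 51 bases and a TATA box 28 bases before the start, together with 3 GC boxes of which the nearer pair overlap. Among all 32851 promoter windows of this length, the cyclic AMP response element occurred in 1.55%, the TATA box in 12.4% and the GC box in 32.7%. Epgn held a TATA box alone, Tgfa held GC boxes alone, and the Btc window matched none of these motifs. None of the 8 member windows found held the AP-1 motif, which occurred in 6.75% of all windows. These are matches of letters and not measured sites.

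The alveolar cells left after removal of other cell types numbered 29581, of 42012 barcodes in the files, and their summed UMIs (unique molecular identifiers, 1 per captured transcript) ran from 7328396 to 71427761 per library. Median UMIs per alveolar cell ran from 3251.5 to 6701 in 8 libraries, against 15804 and 13381.5 in the 2-week RFP+ replicates 1 and 2. All 8 AT2 markers were present in every library, with a summed level of 89497 to 203250 CPM (UMIs scaled to a library total of 1000000). Immune markers summed to 11.9 to 23.2 CPM and all 7 were detected in every library. Airway secretory markers summed to 2485 and 2694 CPM in the Confetti libraries, 289 to 881 CPM in YFP+ and 72.8 to 489 CPM in RFP+ libraries. Markers of damage-associated transient progenitors (DATPs), the Krt8-high state of alveolar repair, summed to 701 and 743 CPM in Confetti, 735 to 2103 CPM in mosaic YFP+, and 1160, 5020, 7207 and 7989 CPM in RFP+ libraries. Replicates of the same number resembled each other across the colours. Replicate 1 of both colours at 4 days was mostly AT2-like by clustering, like Confetti, and replicate 2 mostly primed AT2-like or DATP-like. Cells with Xist and no Y-linked UMI made up 100% of cells with either in both Confetti libraries. This share was 82.7% and 85.1% in replicate 1 at 4 days and 35.3% and 25.8% in replicate 1 at 2 weeks. In every replicate 2 it was at most 0.536%. The part that these differences between libraries have in the results was not tested.

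The ligands Areg, Ereg and Hbegf had their highest group means in mutant cells at 2 weeks, and mutant replicates lay further apart at 4 days. Levels below are CPM after TMM scaling, which count 3′ ends and are not corrected for length, so they are compared within a gene. Areg, the ligand that epithelia release on injury, stood at 154.5 and 114.1 CPM in the Confetti RFP+ and YFP+ libraries, 277.2 and 610.6 CPM in RFP+ at 4 days, 148.8 and 135.5 CPM in YFP+ at 4 days, 929.9 and 1204 CPM in RFP+ at 2 weeks, and 346.1 and 257.6 CPM in YFP+ at 2 weeks. The 2-week RFP+ pair stood above all other libraries, and RFP+ replicate 1 at 4 days fell below YFP+ replicate 1 at 2 weeks, so that the colours overlapped across times but not within a time. Ereg, a close relative of Areg encoded beside it, had 0.483 and 0.262 CPM in Confetti, 8.79 and 61.2 CPM in RFP+ at 4 days, 0.752 and 0.233 CPM in YFP+ at 4 days, 94.2 and 65.9 CPM in RFP+ at 2 weeks, and 7.84 and 12.8 CPM in YFP+ at 2 weeks. Of the 3 genes it differed most, in proportion, between the 4-day RFP+ replicates, and the lower of them was under the higher 2-week YFP+ library. Hbegf, a heparin-binding ligand, had 39.9 and 35.7 CPM in Confetti, 69.0 and 128.6 CPM in RFP+ at 4 days, 39.4 and 34.1 CPM in YFP+ at 4 days, 207.2 and 221.9 CPM in RFP+ at 2 weeks, and 85.8 and 56.5 CPM in YFP+ at 2 weeks. The order of the 6 group levels was the one seen for Areg. In sums over cells, more expressing cells and more RNA per cell cannot be told apart.

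**Figure D1:**
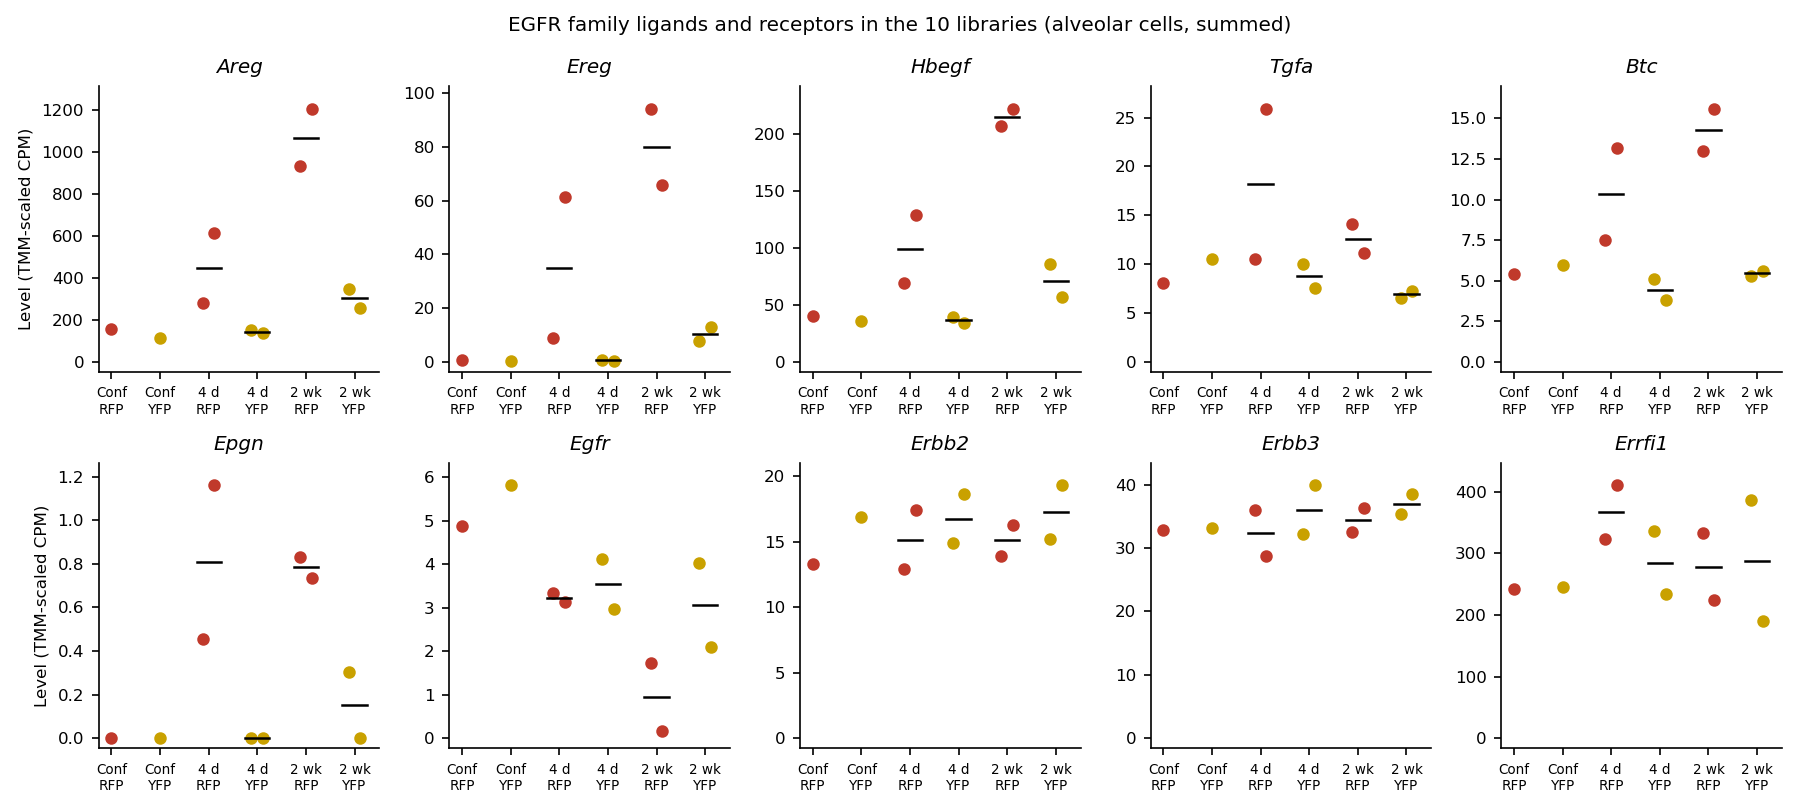
Level of each member (CPM of alveolar cells after TMM scaling, linear axis from 0) in the 10 libraries, with 1 point per library, red for RFP+, yellow for YFP+, and a line at the mean where a group has 2 libraries. Areg, Ereg and Hbegf are highest in the 2-week RFP+ pair, whereas Erbb2 and Erbb3 lie at like levels in all groups.

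The remaining ligands were read from fewer UMIs. Btc, which binds both Egfr and ErbB4, had 5.43 and 5.95 CPM in Confetti, 7.53 and 13.2 CPM in RFP+ at 4 days, 5.07 and 3.79 CPM in YFP+ at 4 days, 13.0 and 15.6 CPM in RFP+ at 2 weeks, and 5.28 and 5.62 CPM in YFP+ at 2 weeks. All 4 RFP+ libraries stood above all 4 YFP+ libraries and above both Confetti libraries. Tgfa, the classical autocrine ligand of Egfr, had 8.08 and 10.5 CPM in Confetti, 10.5 and 25.9 CPM in RFP+ at 4 days, 9.96 and 7.53 CPM in YFP+ at 4 days, 14.1 and 11.1 CPM in RFP+ at 2 weeks, and 6.56 and 7.23 CPM in YFP+ at 2 weeks. RFP+ replicate 2 at 4 days was the highest library, whereas the lowest RFP+ library stood just above the highest YFP+ library and level with Confetti YFP+. Epgn, the neighbour of Ereg, was counted 121 times in all: 9 and 10 UMIs in the RFP+ replicates at 4 days, 64 and 30 in those at 2 weeks, 8 in YFP+ replicate 1 at 2 weeks, and none in the other libraries. With 3 UMIs over a group as the floor, the RFP+ mean of Epgn was 7.48-fold the YFP+ floor at 4 days. At 2 weeks it was 8.32-fold the Confetti floor. These folds take the RFP+ mean as exact, on 19 and 94 UMIs, so they are not strict lower bounds. For Btc, Tgfa and Epgn, 3 of the 10 members, the RFP+ and YFP+ libraries did not overlap, in the direction higher in RFP+, and the same held for 4.31% of the 13202 genes tested.

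The receptors did not share the ligands' pattern. Erbb2, the ligandless partner receptor, ran from 12.9 to 17.4 CPM in RFP+ and from 14.9 to 19.3 CPM in YFP+, with 13.3 and 16.9 CPM in Confetti. Erbb3 ran from 28.7 to 36.3 CPM in RFP+ and from 32.2 to 39.9 CPM in YFP+, with 32.9 and 33.2 CPM in Confetti. For both genes the RFP+ and YFP+ libraries overlapped at each time, while both 2-week YFP+ libraries stood above both Confetti libraries for Erbb3. Egfr itself had 4.89 and 5.82 CPM in Confetti, 3.34 and 3.13 CPM in RFP+ at 4 days, 4.13 and 2.98 CPM in YFP+ at 4 days, 1.74 and 0.171 CPM in RFP+ at 2 weeks, and 4.03 and 2.09 CPM in YFP+ at 2 weeks. Both Confetti libraries stood above all mosaic libraries, and the 2-week RFP+ pair stood lowest. The lowest value, of RFP+ replicate 2, rests on 7 Egfr UMIs, and the gene had 619 UMIs in all. Errfi1, the inducible inhibitor, had 241.7 and 244.7 CPM in Confetti, 323.1 and 410.7 CPM in RFP+ at 4 days, 335.7 and 233.5 CPM in YFP+ at 4 days, 333.2 and 224.3 CPM in RFP+ at 2 weeks, and 386.8 and 189.7 CPM in YFP+ at 2 weeks. Its 2-week YFP+ replicates lay further apart than the highest and lowest of the group means.

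Mutant cells were first compared with the wildtype cells of the same lungs over both times. The 8 mosaic libraries were fitted with time as a term by edgeR's quasi-likelihood test with Benjamini-Hochberg adjustment. The mean level of Areg was 755.4 ± 400.5 CPM in RFP+ and 222.0 ± 99.2 CPM in YFP+ (SD, n = 4 each), a log2 difference of 1.71 (SE 0.2697, adjusted p = 0.07004). Ereg had 57.5 ± 35.6 against 5.42 ± 6.05 CPM, a log2 difference of 4.16 (SE 0.8109, adjusted p = 0.08085). Hbegf had 156.7 ± 71.4 against 54.0 ± 23.3 CPM, a log2 difference of 1.48 (SE 0.234, adjusted p = 0.07004). Each of these 3 genes was higher in RFP+ in 15 of the 16 pairs of libraries, and none passed the threshold of 0.05. Btc differed by 1.29 (SE 0.2216, adjusted p = 0.07004), Tgfa by 0.94 (SE 0.2729, adjusted p = 0.108) and Epgn by 2.84 (SE 0.8886, adjusted p = 0.1208), each higher in RFP+ in 16 of 16 pairs and none past the threshold.

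Over both times 0 of the 10 members were called, as were 0% of all genes (the smallest adjusted p over all genes was 0.05618). At an unadjusted p under 0.05 there were 6 members, which are the 6 ligands, all higher in RFP+, beside 21.7% of all genes. The median log2 difference was 1.11 over the members and -0.02 over all genes tested. Same-numbered libraries deviated together and were taken as pairs, and with this replicate block edgeR's quasi-likelihood test called the 6 ligands, all higher, against 17.1% of all genes. Epgn passed the filter on low counts only through RFP+ libraries, so its calls are given as values and support nothing. The blocked differences were 1.66 for Areg (adjusted p = 0.00561), 3.85 for Ereg (0.00717), 1.47 for Hbegf (0.004999), 1.27 for Btc (0.008077), 0.89 for Tgfa (0.04189) and 2.81 for Epgn (0.03868). DESeq2 without the block called the same 6, against 9.77% of all genes. The receptors and Errfi1 were called by none of the 3 fits. The log2 difference was -0.93 for Egfr (95% interval -2.35 to 0.49), -0.19 for Erbb2 (-0.58 to 0.20), -0.15 for Erbb3 (-0.51 to 0.21) and 0.14 for Errfi1 (-0.49 to 0.76), so the intervals allow a change in either direction. Without RFP+ replicate 1 at 4 days 5 members were called over both times, among 1466 of 13682 genes, and without RFP+ replicate 2 at 4 days only Ereg was, among 7 of 13649 genes.

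**Figure D2:**
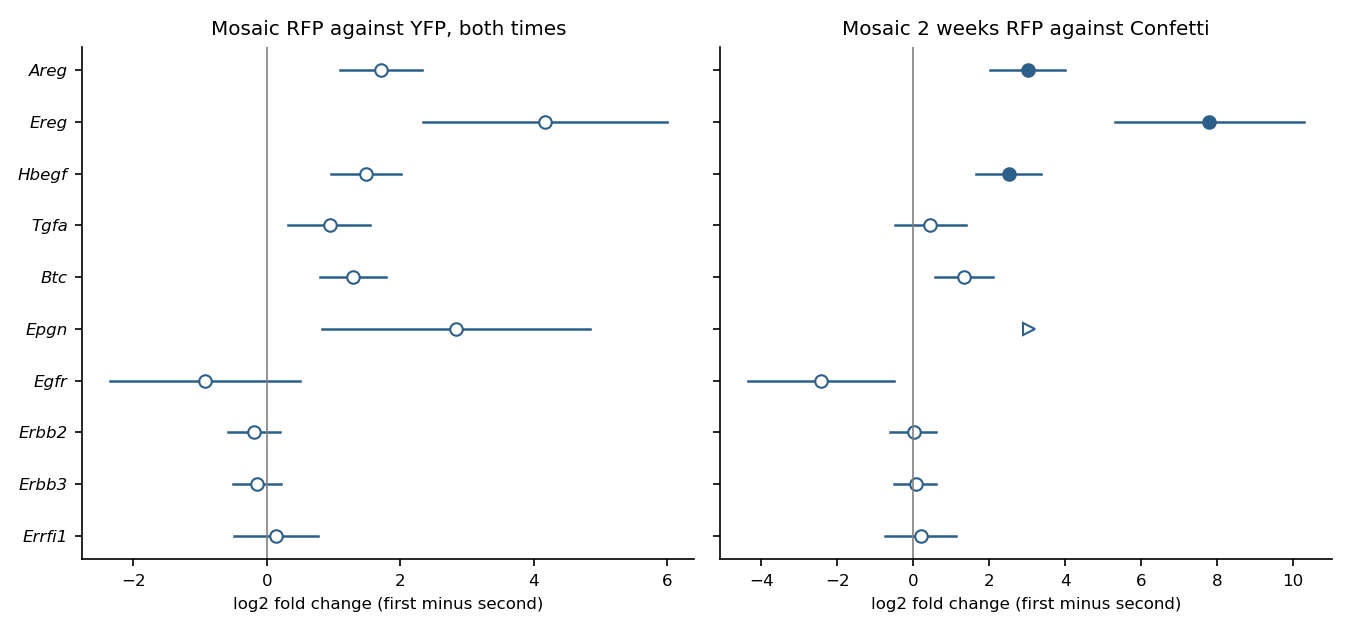
Log2 fold change of each member with its 95% interval, for mosaic RFP+ against YFP+ over both times (left) and for 2-week RFP+ against Confetti (right). Filled points passed an adjusted p of 0.05 (edgeR quasi-likelihood) and open points did not. The triangle is the Epgn mean against a floor of 3 UMIs, as Epgn had no UMI in Confetti. The ligands lie to the right of 0 in both panels and Erbb2, Erbb3 and Errfi1 lie close to 0.

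Taken separately, both times had Areg, Ereg and Hbegf higher in RFP+, from fewer libraries. At 4 days the log2 difference of RFP+ from YFP+ was 1.64 for Areg, 6.25 for Ereg and 1.43 for Hbegf, each with an adjusted p of 0.8254, and 0 of the 10 members and 0% of all genes passed. With 1 library left out these differences ran from 0.96 to 2.11, 4.28 to 7.19 and 0.91 to 1.81. Without adjustment 6 members, Epgn among them, were under 0.05, beside 5.68% of all genes. With the replicate block, Ereg alone was called at 4 days (6.14, adjusted p = 0.01302; 1.08% of all genes), and DESeq2 called Areg, Ereg and Hbegf, beside 0.726% of all genes. At 2 weeks the difference was 1.82 for Areg (SE 0.4131, adjusted p = 0.1911), 2.98 for Ereg (SE 0.8095, adjusted p = 0.2012) and 1.59 for Hbegf (SE 0.3573, adjusted p = 0.1911), and Egfr differed by -1.68 (SE 0.834, adjusted p = 0.3485). Again 0 of the 10 members passed, as against 0.00726% of all genes, and before adjustment 4 members were under 0.05, beside 16.4% of all genes. The replicate block called 5 members at 2 weeks, against 16.9% of all genes: Areg, Ereg, Hbegf and Btc higher, and Egfr lower (-1.93, adjusted p = 0.03601). With 1 library left out, the Egfr difference without the block ran from -4.17 to -0.89 at 2 weeks. DESeq2 called Areg, Ereg, Hbegf and Btc, against 3.39% of all genes. The change of the colour difference from 4 days to 2 weeks was tested as an interaction, and 0 of 10 members and 0% of all genes were called by edgeR, with or without the block, or by DESeq2. Ereg was the 1 member under 0.05 before adjustment, beside 1.51% of all genes, with a smaller difference at 2 weeks (-3.27, SE 1.275, adjusted p = 0.9999). Over the alternatives run this value ranged from -4.21 to -0.83. The YFP+ mean of Ereg was 0.493 CPM at 4 days and 10.3 CPM at 2 weeks.

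Against the Confetti libraries, mutant cells at 2 weeks had 3 of the 10 members called, Areg, Ereg and Hbegf, all higher, while 5.37% of all 13774 genes were called (473 higher and 266 lower). These comparisons use all 10 libraries and share the Confetti libraries. The methods count those as a single Confetti set, so both colours may come from the same pooled lungs and n = 2 counts libraries. Cells with Xist and no Y-linked UMI made up 100% of cells with either in Confetti, against 35.3% and 0.0519% in 2-week RFP+. Sex, read from these genes, therefore changes together with the line in this comparison, and its part was not tested. Areg rose from a mean of 134.3 ± 28.6 CPM (SD, n = 2) to 1067 ± 193.8 CPM (SD, n = 2), a log2 change of 3.01 (95% interval 2.01 to 4.00). Ereg rose from 0.372 ± 0.156 to 80.1 ± 20 CPM, a log2 change of 7.79 (5.30 to 10.29). Hbegf rose from 37.8 ± 2.94 to 214.6 ± 10.4 CPM, a log2 change of 2.51 (1.66 to 3.35), and the adjusted p was 0.0325 for each of the 3 by edgeR's quasi-likelihood test. For every one of them both 2-week RFP+ libraries stood above both Confetti libraries. Btc differed by 1.33 (SE 0.3348, adjusted p = 0.05302) and Tgfa by 0.45 (adjusted p = 0.4685). Egfr differed by -2.44 (95% interval -4.36 to -0.51, adjusted p = 0.1001), from 5.35 ± 0.661 to 0.957 ± 1.11 CPM, and ran from -4.92 to -1.64 with 1 library left out. Erbb2 differed by 0.01 (-0.60 to 0.61), Erbb3 by 0.06 (-0.50 to 0.61) and Errfi1 by 0.20 (-0.74 to 1.13), with signs that changed under other settings. DESeq2 called 6 members, Areg, Ereg, Hbegf, Btc and Epgn higher and Egfr lower, against 16.0% of all genes. The 3 calls rest on few libraries: none remained without either Confetti library (1 gene called of all genes each time) or without RFP+ replicate 2 at 2 weeks (5 genes), and Ereg alone remained without either YFP+ library of 4 days (43 and 38 genes). They were also lost when the discarded cell types or all barcodes were summed, although the log2 changes stayed between 2.76 and 3.22 for Areg, 6.58 and 8.23 for Ereg, and 2.37 and 2.59 for Hbegf under all alternatives run.

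Before adjustment, mutant cells at 4 days had 6 members under 0.05 against Confetti, Epgn among them, beside 8.82% of all genes. By edgeR 0 of 10 members were called, beside 0% of all genes. The differences were 1.74 for Areg (adjusted p = 0.4832), 6.59 for Ereg (0.2366) and 1.39 for Hbegf (0.4832). With 1 library left out they ran from 1.06 to 2.20, 4.61 to 7.41 and 0.87 to 1.77. DESeq2 called those 3 ligands, against 1.92% of all genes, and without RFP+ replicate 1 at 4 days edgeR called them too, among 329 of 13641 genes.

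Wildtype neighbours were next compared with Confetti. At 4 days none of the members were called (0 of 10 by edgeR and by DESeq2, and 0 under an unadjusted p of 0.05), against 0.0290% and 0.0871% of all genes, and 5 of the 10 were higher. Areg had a mean of 142.1 CPM in these cells against 134.3 CPM in Confetti, and Hbegf 36.8 against 37.8 CPM. At 2 weeks the YFP+ cells stood above Confetti by 1.19 for Areg (adjusted p = 0.7634), 4.82 for Ereg (0.7309) and 0.92 for Hbegf (0.7634), in 4 of 4 pairs of libraries for each. Over the alternatives run these ranged from 0.90 to 1.40, 2.41 to 5.25 and 0.61 to 1.18. By edgeR 0 of 10 members passed, against 0.0218% of all genes. Before adjustment 4 were under 0.05 (Areg, Ereg, Hbegf and Epgn), beside 5.66% of all genes. Epgn had 8 UMIs in 1 of these YFP+ libraries and none in Confetti, so its place among the 4 supports nothing. DESeq2 called Ereg alone, against 0.733% of all genes. The Ereg UMIs of these YFP+ libraries lay in few cells. In replicate 1, 178 of 208 Ereg UMIs came from 22 DATP-like cells, which were 0.521% of its alveolar cells, and in replicate 2, 49 of 80 came from 28 such cells, 2.78% of its cells.

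Counting cells in place of transcripts gave the share of alveolar cells with at least 1 UMI, after each cell was thinned to 2000 UMIs. For Areg this share was 14.5% and 13.0% in Confetti, 20.5% and 38.2% in RFP+ at 4 days, 14.0% and 15% in YFP+ at 4 days, 47.9% and 47.1% in RFP+ at 2 weeks, and 29.6% and 12.7% in YFP+ at 2 weeks. For Ereg it was 0.105% and 0.0254% in Confetti, 0.888% and 7.84% in RFP+ at 4 days, 0.118% and 0.0341% in YFP+ at 4 days, 9.99% and 9.49% in RFP+ at 2 weeks, and 0.166% and 0.298% in YFP+ at 2 weeks. The lowest RFP+ share stood above the highest YFP+ share, but both lay below the 1.24% of discarded immune cells with Ereg. For Hbegf the share was 6.89% and 7.07% in Confetti, 9.69% and 16.2% in RFP+ at 4 days, 6.98% and 5.82% in YFP+ at 4 days, 28.1% and 26.9% in RFP+ at 2 weeks, and 13.5% and 5.96% in YFP+ at 2 weeks. Over the 4 RFP+ and 4 YFP+ libraries the mean share was 38.4% ± 12.8 against 17.8% ± 7.90 for Areg (exact permutation test, two-sided, p = 0.0571), 7.05% ± 4.21 against 0.154% ± 0.110 for Ereg (p = 0.0286, the smallest that 4 against 4 can give) and 20.2% ± 8.81 against 8.08% ± 3.68 for Hbegf (p = 0.0571). Btc and Epgn also reached the smallest exact p of 0.0286, and Tgfa had an exact p of 0.0571. For Epgn all 4 YFP+ shares were 0, and its exact p was 0.143 at 1000 UMIs. With at least 2 UMIs required per cell the exact p was 0.143 for Btc. These p-values of 10 tests are unadjusted, and none could pass an adjustment over all genes. Ereg had an exact p of 0.0571 when cells were thinned to 1000 UMIs or left unthinned, as 1 of the 16 pairs of libraries then overlapped. These permutations do not keep the same-numbered pairs: RFP+ was higher in 4 of 4 such pairs for Areg, Ereg, Hbegf, Btc and Epgn and in 3 of 4 for Tgfa, and an exact sign-flip test over the pairs, added after the data were seen, gave p = 0.125 for the former, the smallest that 4 pairs allow, and 0.25 for Tgfa. For Erbb2 the shares were 3.18% and 3.08%, for Erbb3 6.59% and 6.76%, and for Errfi1 40.8% and 37.1%, with exact permutation p from 0.600 to 0.857. Without thinning, the mean shares were 58.3% against 31.5% for Areg, 18.5% against 0.877% for Ereg and 47.2% against 19.4% for Hbegf.

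The same thinned shares were taken in the discarded cells of all libraries. Among 311 endothelial cells, 1.61% had Areg, 0 had Ereg (which allows up to 0.965%) and 15.4% had Hbegf. Among 2428 immune cells, 4.08% had Areg and 1.24% each had Ereg and Hbegf. Median depth before thinning was 3946 UMIs in endothelial and 7096 UMIs in immune cells. Immune cells held Ereg at 9.77 CPM and endothelial cells held Hbegf in every group, so these shares may include RNA of the discarded cells themselves and do not set a level of free RNA. The Ereg shares of both Confetti libraries, all 4 mosaic YFP+ libraries and RFP+ replicate 1 at 4 days (0.888%) lay below the immune share. The immune share is no floor for alveolar cells, so it cannot tell whether these low shares are free RNA, which was not tested. The full separation of the colours for Ereg and its exact p are given as values only. The Egfr share was 0.539% in RFP+ and 0.720% in YFP+, beside 0.165% of immune cells (95% interval 0.0449% to 0.421%) and 0.322% of endothelial cells (0.00814% to 1.78%). Epgn was seen in 0.124% of RFP+ and 0 of YFP+ cells, and in 0.0412% of immune cells.

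**Figure D3:**
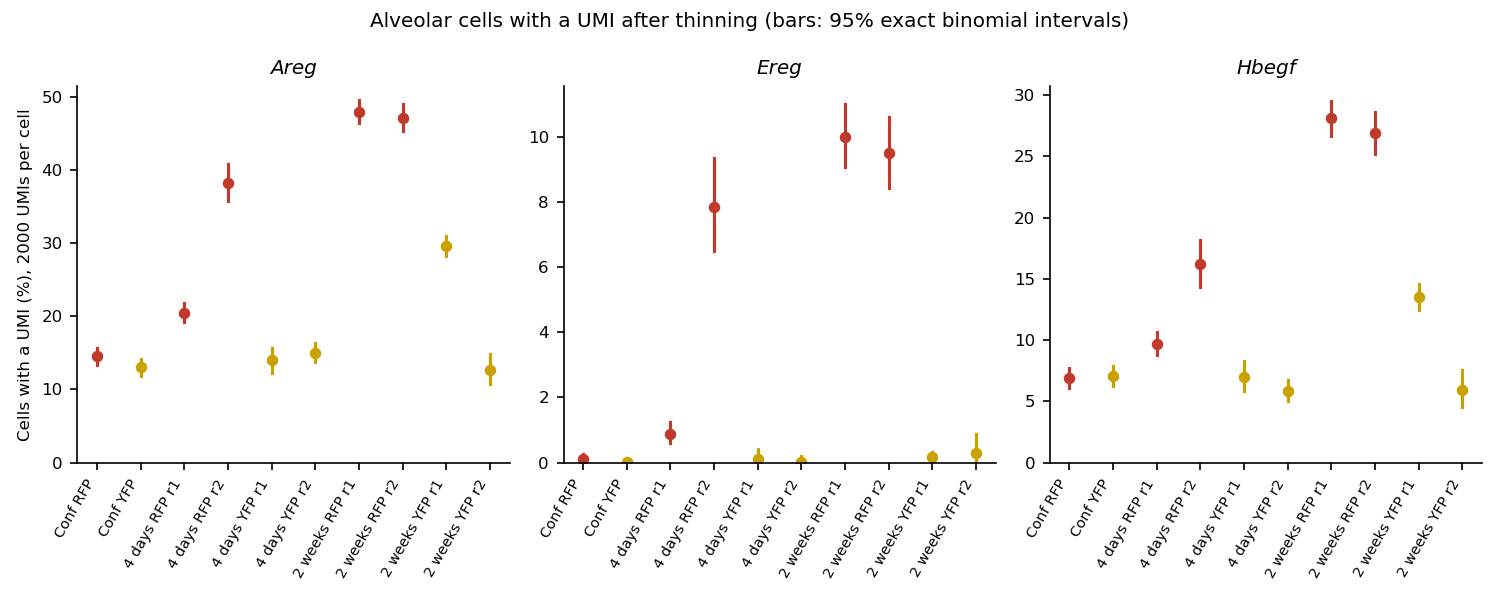
Percent of alveolar cells with at least 1 UMI of Areg, Ereg or Hbegf in each library after thinning to 2000 UMIs per cell, with exact 95% Clopper-Pearson intervals, which cover counting error only, in red for RFP+ and yellow for YFP+. All 4 RFP+ points stand above all 4 YFP+ points for Ereg, whereas for Areg and Hbegf the 2-week YFP+ replicate 1 stands above the 4-day RFP+ replicate 1.

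The ligand levels were highest in DATP-like cells, which held most of the Areg, Ereg and Hbegf UMIs in 3 of the 4 mosaic RFP+ libraries. Alveolar cells were clustered with the members and their pathway genes left out, and the clusters were called by markers as AT2-like (10526 cells), primed AT2-like (9995), cycling-like (1637) and DATP-like (2668), while clusters led by Atf3 and Nfkbia (3162) and by Meg3 and Kng2 (1593) met no marker rule and stayed unnamed. Levels by state are a description and were not tested, since the states come from the same cells. Areg was highest in DATP-like cells, at 1334 CPM in RFP+ replicate 2 at 4 days and 2563 and 2851 CPM in RFP+ replicates 1 and 2 at 2 weeks, the 3 libraries with at least 50 such cells. Its median level over libraries was 65.8 CPM in AT2-like cells, 268 CPM in primed AT2-like cells, 350 CPM in cycling-like cells and 522 CPM in the cluster led by Atf3 and Nfkbia, where 1 library of each of the 6 groups lay between 464 and 551 CPM. At a finer clustering (resolution 1.5) the clusters led by Atf3 or by Nfkbia among their genes took the AT2-like name, and the AT2-like median of Areg was 147 CPM. Neighbouring states in that order overlapped in their ranges, but the lowest DATP-like value was above the highest value of any other state (575 CPM). Hbegf had the same top state, at 219 to 424 CPM in DATP-like cells, against medians of 27.0 CPM in AT2-like, 68.6 CPM in primed AT2-like and 125 CPM in Atf3-led cells, where the highest library (226 CPM) stood above the lowest DATP-like value.

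Ereg was at 131 to 279 CPM in DATP-like cells and at 27.2 and 112 CPM in the Meg3-led cluster, 91.7% of which came from RFP+ replicate 2 at 2 weeks. Its median over libraries in AT2-like cells was 0, with a highest value of 3.29 CPM. At resolution 1.5 the highest AT2-like value of Ereg was 18.9 CPM, in RFP+ replicate 1 at 2 weeks. Among primed AT2-like cells, Ereg had 25.1, 2.57, 34.1 and 28.0 CPM in the 4 RFP+ libraries and 2.28, 0, 1.11 and 0.855 CPM in the 4 YFP+ libraries. Hbegf in the same state had 100, 74.5, 140 and 131 CPM in RFP+ and 34.2, 28.9, 68.6 and 26.8 CPM in YFP+. For Hbegf the colours did not overlap within primed AT2-like cells, for Ereg the separation rests on a single UMI in the 58 cells of YFP+ replicate 1 at 4 days (2.28 against 2.57 CPM), and for Areg they overlapped (148 to 387 CPM in RFP+ and 62.2 to 293 CPM in YFP+). Different clusters hold most of that state in different libraries: one led by Pglyrp1 was 74.3% from RFP+ replicate 1 at 2 weeks, another led by Apoc1 was 57.0% from YFP+ replicate 2 at 4 days, and another led by Hspa1b was 87.0% from YFP+ replicate 1 at 2 weeks. Btc and Tgfa were also highest in DATP-like cells, at 29.9 to 36.9 CPM and 15.7 to 48.0 CPM, against medians of 5.20 and 8.67 CPM in AT2-like cells. Tgfa reached 25.1 CPM in the 95 cycling-like cells of the Confetti YFP+ library, so its states overlapped, and Btc did not exceed 15.4 CPM in any other state. Epgn ran from 1.42 to 3.02 CPM in DATP-like cells, on 10 to 27 UMIs a library, and its median was 0 in AT2-like, primed AT2-like and cycling-like cells.

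The receptors had no such top state. Erbb3 medians ran from 29.5 to 43.7 CPM and Erbb2 medians from 12.8 to 23.6 CPM over the 6 states. Egfr had 4.74 CPM in AT2-like cells, 3.73 CPM in DATP-like cells (0.325 to 6.64) and 1.29 CPM in primed AT2-like cells, and a single UMI in the 84 and 1460 Meg3-led cells of the 2-week RFP+ libraries. Within DATP-like cells it was therefore not lower than in AT2-like cells in every library, as RFP+ replicate 2 at 4 days had 6.64 CPM. Errfi1 was highest in the Atf3-led cluster (median 459 CPM, 381 to 813) and in DATP-like cells (447 CPM, 345 to 678), beside 290 CPM in AT2-like cells, and the ranges overlapped.

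**Figure D4:**
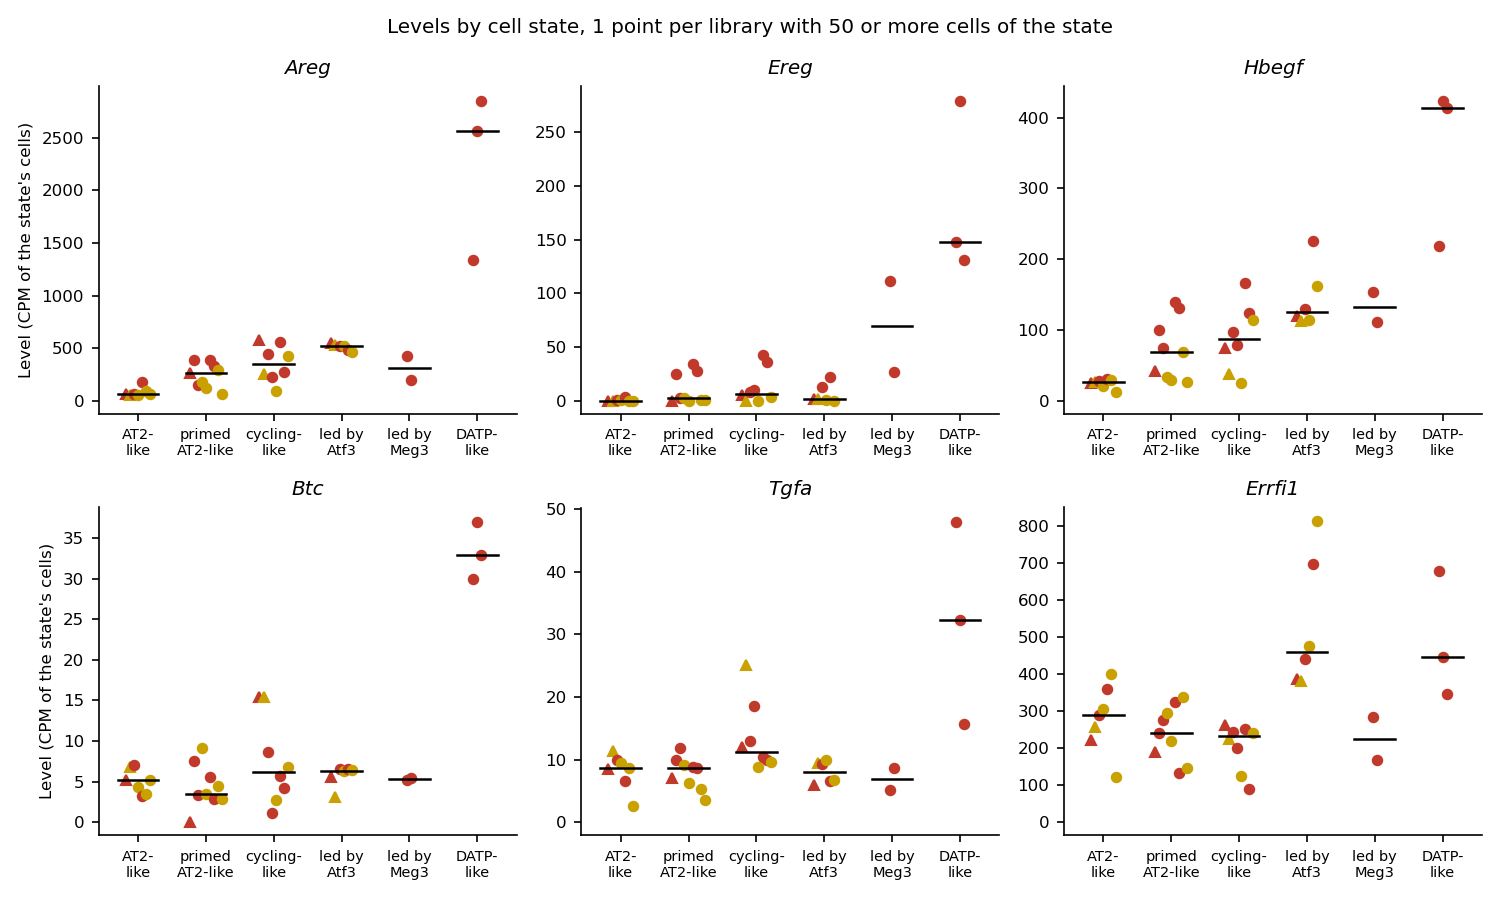
Level of 6 members in each cell state (CPM of that state's UMIs, linear axis), with 1 point per library with at least 50 cells of the state, red for RFP+, yellow for YFP+, triangles for Confetti and circles for mosaic, and a line at the median. DATP-like cells are highest for Areg, Ereg, Hbegf and Btc, with 3 libraries, all RFP+.

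DATP-like cells were 1.10% and 36.7% of alveolar cells in RFP+ replicates 1 and 2 at 4 days and 23.0% and 40.1% at 2 weeks, and none of the Confetti cells. They held 15.4% and 84.0% of the Areg UMIs of the 4-day RFP+ libraries and 68.3% and 89.3% of those of the 2-week RFP+ libraries. At 2 weeks in YFP+ they held 10.3% of Areg UMIs in replicate 1 and 60.7% in replicate 2. In Confetti, where the state was absent, the cluster led by Atf3 and Nfkbia held 50.3% and 57.3% of Areg UMIs. For Ereg the DATP-like share of UMIs was 28.7% and 93.4% in RFP+ at 4 days and 73.3% and 75.2% at 2 weeks, and for Hbegf it was 7.17% and 65.3%, then 50.7% and 70.3%. DATP-like cells were also deeper, with a median of 12006 UMIs against 3938 UMIs in AT2-like cells. At 2000 UMIs per cell, a median over libraries of 83.9% of DATP-like cells had Areg, 45.0% Hbegf and 19.7% Ereg, against 8.63%, 4.71% and 0 in AT2-like cells.

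**Figure D5:**
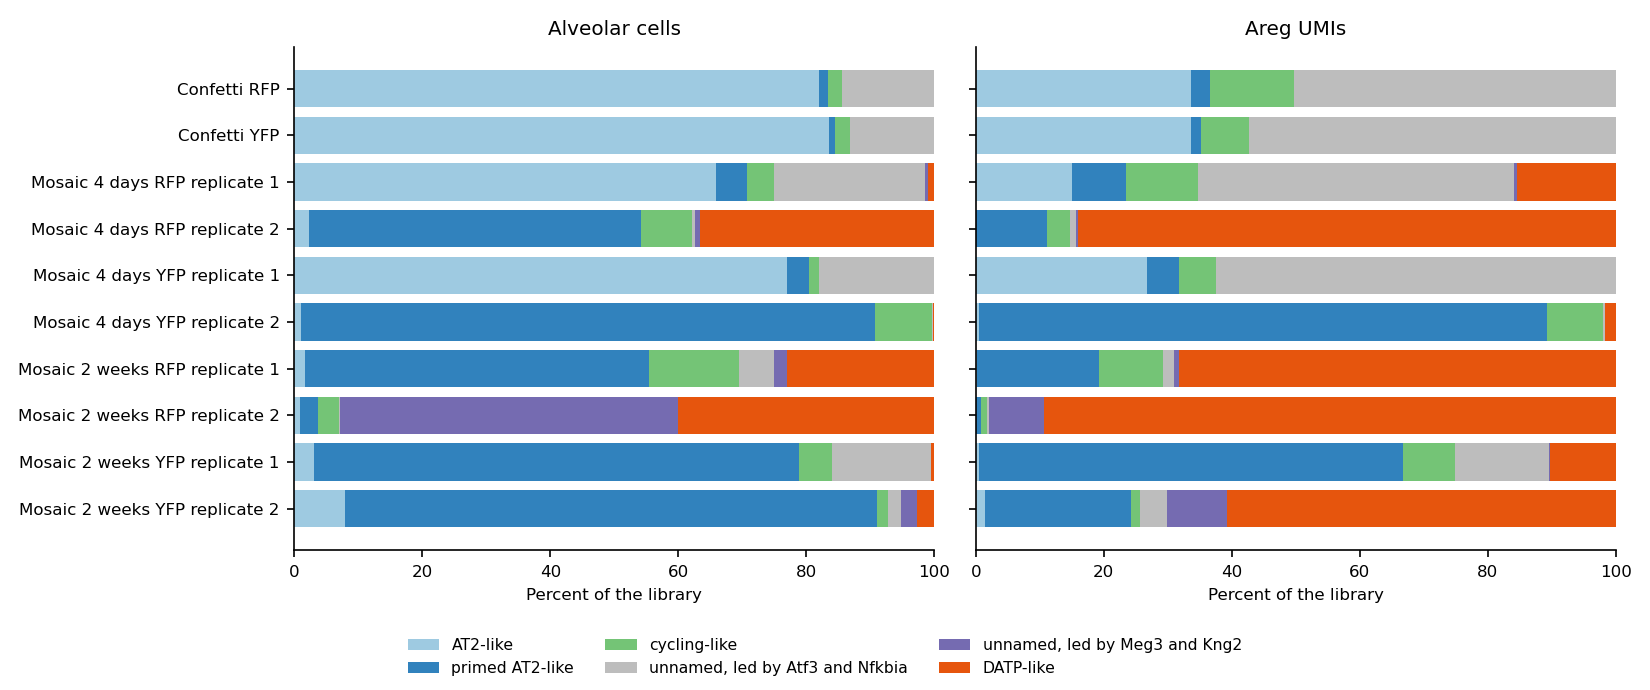
Percent of alveolar cells (left) and of Areg UMIs (right) that fall in each cell state, with 1 bar per library. DATP-like cells (orange) hold 84.0%, 68.3% and 89.3% of Areg UMIs in 3 of the RFP+ libraries with 36.7%, 23.0% and 40.1% of the cells.

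Hbegf was seen more often in cells with Areg than in cells without it in all 10 libraries, and Ereg in 9 of 10 (in YFP+ replicate 2 at 4 days the 1 cell with Ereg had no Areg). For Tgfa and Btc the order differed between libraries (Tgfa in 1.97% against 2.00% and Btc in 0.921% against 1.39% in RFP+ replicate 1 at 4 days). At 2000 UMIs per cell, Ereg was seen in 18.4% and 16.8% of cells with Areg and 2.23% and 2.94% of cells without it in the 2-week RFP+ libraries. In RFP+ at 4 days these shares were 2.89% against 0.372% in replicate 1 and 19.2% against 0.793% in replicate 2. Hbegf was seen in 36.0% and 39.9% of cells with Areg and 20.8% and 15.2% of cells without it in RFP+ at 2 weeks, and in 14.9% against 5.54% and 11.7% against 6.38% of Confetti cells. Cells of 1 library share its free RNA and its mix of states, so these shares are a description. Egfr and Areg were rarely seen together, as only 2 to 12 cells of the 2-week RFP+ libraries held both, which is the order of the 0.943 and 10.5 cells given by the product of their shares.

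Across the 10 libraries the level of Areg followed that of Hbegf most closely of 13773 genes compared (Pearson r of log2 CPM 0.995), before Ifitm10 (0.990) and Ccdc86 (0.984). The genes most like Hbegf were Areg, Ifitm10 (0.989) and Tnip3 (0.988), and those most like Ereg were Plaur (0.968), Tnip3 (0.966) and Slc4a7 (0.965). Tgfa was most like Sart3 (0.977) and Mdm2 (0.970), and its r with Areg was 0.50. Erbb3 was most like Ntpcr (0.935), Elf5 (0.922) and H2-M3 (0.917), and Errfi1 most like Prkab2 (0.926), Herc4 (0.912) and Klf5 (0.905). Between members, Areg had an r of 0.96 with Ereg, 0.90 with Btc and -0.78 with Egfr. The libraries share groups, colours, depth and state shares, so these values describe the libraries only.

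Further genes of the pathway were taken by function. Against Confetti at 2 weeks, of 16 genes induced by ERK signalling, all tested, 2 rose and 1 fell (5.37% of all genes were called), with a median log2 change of 1.2 beside 0.03 over all genes. Etv4, an ETS factor, rose from 0.362 and 0.392 CPM in Confetti to 17.4 and 29.7 CPM in RFP+ (log2 5.94, SE 0.9156, adjusted p = 0.0343), and Dusp6, the ERK phosphatase, from 41.3 and 44.9 to 116.7 and 111.5 CPM (1.40, SE 0.285, adjusted p = 0.04396). Etv5, an ETS factor that is also an AT2 marker, fell by 2.15 on the log2 scale (SE 0.4351, adjusted p = 0.04396), from 335.0 and 413.4 to 114.6 and 52.7 CPM. These calls, and that of Adam9 next, come from the comparison whose calls fell to 1 gene in all without either Confetti library, so at most 1 of the 4 remained there, and none remained with discarded types summed. Of 10 genes of ligand shedding, all tested, Adam9 rose (1.16, adjusted p = 0.04702), from 22.8 CPM in each Confetti library to 48.0 and 54.1 CPM, and none fell, with a median of 0.11. The main sheddases did not pass: Adam17 differed by -0.62 (adjusted p = 0.1184) and Adam10 by -0.35 (adjusted p = 0.3011). None of 13 receptor adaptors or of 15 tested genes of receptor downregulation passed (unadjusted, 1 higher and 4 lower among the adaptors, and 2 higher and 4 lower among the latter, beside 31.1% of all genes), with medians of -0.45 and -0.32. Of the other ErbB genes, Egf, Nrg1 to Nrg4 and Erbb4, Nrg1 alone had enough counts to test, and it differed by 3.55 (adjusted p = 0.07642). In the comparison of RFP+ with YFP+ over both times 0 genes of any of these lists were called by edgeR, and unadjusted 9 of the 16 ERK-induced genes were higher and 1 lower, beside 21.7% of all genes, with a median of 0.79 beside -0.02 over all genes. Unadjusted, 2 shedding genes were higher and 1 lower, 3 adaptors were lower, 2 downregulation genes were higher and 1 lower, and Nrg1 was higher.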

How the data were processed

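Per the labels and the study's methods, cells were captured on the 10x platform, reads were aligned by the authors to GRCm38 in Cell Ranger (3.1.0 in the methods, a later version in the file headers), empty droplets were removed and UMI counts per gene were deposited for each library, with no normalization. The labels and the methods differ on the chemistry version, which is not used here. Following the study's limits, a cell was kept with at least 1000 genes detected, no more than 50000 UMIs and up to 15% of its UMIs from mitochondrial genes, and 32698 of 42012 barcodes remained. Clustering (scanpy 1.11.5, Louvain in igraph 0.11.9, resolution 0.8) without the members and pathway lists then set aside immune (2429), endothelial (340), ciliated (252) and mesenchymal (96) cells. No doublets were removed from the main values, and an alternative left out the cells with the highest doublet scores. Any 2 libraries shared at most 0.344% of their barcodes.

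UMI counts were summed over the alveolar cells of a library and tested with edgeR 4.0.16 (R 4.3.3; TMM, filterByExpr by group, quasi-likelihood, Benjamini-Hochberg over all genes, threshold 0.05). RFP+ against YFP+ over both times used the 8 mosaic libraries with time as a term. All other comparisons used all 10 libraries and 6 groups, where Confetti was the mean of both colours. The labels name no separate animals for replicates, so p-values measure the spread between pooled samples. Same-numbered RFP+ and YFP+ libraries come from lungs of the same genotype and time, and their deviations from the group means correlated at 0.49 (4 days) and 0.60 (2 weeks) over 13774 genes, so the number was fitted as a block in an alternative. Libraries were prepared on 2 days, which the labels do not assign, so the day was not fitted. DESeq2 1.42.0, other filters on genes, cells and depth, and leaving out each library were further alternatives. On simulated data of 12042 genes, 29% of genes changed 2-fold and 100% of genes changed 4-fold were recovered for RFP+ against YFP+ over both times. For 2-week RFP+ against Confetti these were 8% and 70%. The simulated libraries were independent, with the same spread for all genes, and the changed genes were drawn above a minimum level. These percentages therefore do not give the recovery in the real libraries, whose same-numbered replicates deviated together.

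Shares of cells were compared after thinning to 2000 UMIs, which left out 0 to 6 cells a library, by exact permutation of libraries. Intervals are Clopper-Pearson or exact Poisson at 95%, the floor for a count of 0 is 3 counts, and both cover counting error only. A cluster took a state's name from its marker list with the highest mean score, given at least 3 detected markers, no more leading genes from another list and, except for AT2, a score of at least 0.25. Named genes were all 10 members, up to 3 called genes per pathway list with the largest change in 2-week RFP+ against Confetti, and the 3 genes most correlated with each member above 20 CPM, and Adam10, Adam17 and Nrg1 were added after their values were seen. The mutated gene of the mosaic lungs and 1 gene correlated with Tgfa are not reported here. The members, lists and tests were chosen with earlier results of these data known. Promoter windows are RefSeq's (GRCm38.p6).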

Additional observations from a re-analysis of the deposited data

Results flagged for a closer look

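Several values outside the alveolar cells stood above the Confetti level. Areg was at 120 CPM in the discarded immune cells of the mosaic RFP+ libraries, above the Confetti immune cells (64.8 CPM, 95% Poisson interval 47.1 to 87.0), and at 25 CPM in those of the YFP+ libraries. In discarded endothelial cells Areg was at 126 CPM in RFP+ (58 UMIs in 76 cells), 15.4 CPM in Confetti and 14.0 CPM in YFP+, and Errfi1 was at 115 CPM in RFP+ and 96.5 CPM in YFP+, against 46.1 CPM in Confetti. In discarded ciliated cells Areg was at 514 CPM in RFP+, 258 CPM in Confetti and 233 CPM in YFP+. These are sums over libraries, the intervals cover counting error only, and the part of free RNA from alveolar cells of the same libraries was not tested.

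Among the 4 mosaic YFP+ libraries, Epgn in replicate 1 at 2 weeks had 8 UMIs where the others had none (gap over range 1.00). With the others tied at 0, any count gives this value, so it is no test, and this library had the most alveolar UMIs of the 4.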

How the results depend on the processing

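Of 535 reruns of 33 single member values, 444 kept their direction and side of the threshold and 8 changed sign. Reruns of the shares changed sign 7 times, for Erbb2, Erbb3 and Errfi1 only. The 6 ligands kept their direction over both times in every alternative run, and the cause of the changes below was not tested. Members called over both times (0) numbered 6 by DESeq2, 6 with no filter on low counts, 6 with the replicate block, 1 with thinned cells, and 0 to 5 when libraries were left out. At 4 days (0) they numbered 3, 4 and 1 by DESeq2, with no filter and with the block, and 0 to 2 with libraries left out, and at 2 weeks (0) 4, 5 and 5, and 0. Against Confetti, 4-day RFP+ (0) gave 3 by DESeq2, 4 with no filter and 0 to 3 with libraries left out, and 2-week RFP+ (3) gave 6 by DESeq2, 6 with no filter, 0 with discarded types or all barcodes summed, and 0 to 5 with libraries left out. For 2-week YFP+ against Confetti (0), DESeq2 and no filter each gave 1 (Ereg), and for the change of the colour difference with time (0) no filter gave 1 (Ereg). The block changed no other call.

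In 2-week RFP+ against Confetti, Erbb2 (0.01) turned to -0.07 with discarded types, -0.11 with all barcodes and -0.01 with thinned cells, Erbb3 (0.06) to -0.02 with all barcodes, and with libraries left out Erbb2 ran from -0.16 to 0.16, Erbb3 from -0.06 to 0.11 and Errfi1 from -0.14 to 0.42. In the thinned shares, RFP+ minus YFP+ ran from -0.146 to 0.388 points for Erbb2, -0.631 to 0.465 for Erbb3 and -0.312 to 6.90 for Errfi1 with libraries left out, and Erbb3 turned from -0.168 to 8.04 points without thinning. With no filter, 490 of 20849 genes were called at 4 days, 1379 at 2 weeks, 824 in 4-day RFP+ and 534 in 2-week YFP+ against Confetti. Genes called in all were 0 over both times, 1290 by DESeq2, 1931 with no filter and 2263 with the block and 16 with thinned cells, and for 2-week RFP+ against Confetti 739, 2206 by DESeq2, 3244 with no filter, 1 with all barcodes and 0 with discarded types. Without YFP+ replicate 1 at 2 weeks the YFP+ libraries held no Epgn UMI, so its difference of 2.84 became a fold against 0. At clustering resolution 1.5 the AT2-like median moved from 65.8 to 147 CPM for Areg and from 27.0 to 38.0 CPM for Hbegf, and the other 18 of 20 state levels moved by less than the spread. Epgn (121 UMIs) and Egfr (619 UMIs) are limited by depth, and with at least 2 UMIs per cell neither left a share to compare.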

Other observations

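Hbegf was also counted outside the alveolar cells in every group: discarded endothelial cells held 127 CPM in Confetti (95% Poisson interval 98.0 to 161), 113 CPM in mosaic RFP+ (84.2 to 148) and 107 CPM in mosaic YFP+ libraries (83.6 to 136), on 66, 52 and 69 UMIs. Ereg was at 23.6 CPM in discarded immune cells of Confetti (16 UMIs), 10.9 CPM in those of RFP+ (137 UMIs) and 6.72 CPM in those of YFP+ libraries (51 UMIs), and no UMI of Ereg, Btc or Epgn was seen in 340 endothelial cells.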
